A study of Homo sapiens with 9 samples.

Results

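The genes described here are 152 of the 60420 gene IDs in the files that were counted mainly in melanoma cells carrying SPANX knockdown construct 86. They were chosen by their own levels. Each had a normalised read count of 14 or more in all 3 construct 86 libraries and of less than 14 in at least 1 EV library. Each was listed at 0 in all 3 construct 87 libraries, and its construct 86 mean was at least 4 times the EV mean plus 1. The difference between construct 86 and EV libraries is therefore what selected these genes, and their values are given as a description with no test.

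All libraries came from A375, an established human melanoma cell line, and RNA was taken 7 days after SPANX knockdown. There were 3 groups with 3 libraries each. They are the knockdown the labels call SPANX KD 86, the knockdown they call SPANX KD 87, and the EV control, and the numbers 86 and 87 are used here as names of 2 knockdown constructs. Libraries were made with the QuantSeq 3' mRNA-Seq FWD kit, which counts transcripts from reads near their 3' ends, so levels were not divided by transcript length. The labels do not say whether replicates were separate cultures, so every p-value measures the spread between these libraries only, which may be technical.

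SPANX genes form a family of cancer-testis antigens, proteins normally made in male germ cells and often switched on in tumours. Transcripts that a melanoma cell line makes at very low levels often belong to other lineages or to tissue-specific programmes, such as ion channels of neurons or receptors of blood and vessel cells. A 3' count of such a gene rests on few reads, and whether it is listed at all can depend on the filter applied to the table.

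A listed value corresponds to about the same number of reads, since 1 read was worth between 0.870 in construct 86 replicate 2 and 1.15 in construct 86 replicate 3. Construct 86 libraries held 14.4, 15.6 and 11.3 M reads and EV libraries 12.9, 14.6 and 12.3 M reads, as recovered from the spacing of the values. Both SPANX genes above 0 fell with construct 86. SPANXC had 99, 35 and 42 in construct 86 libraries, against 402, 148 and 512 in EV libraries (limma log2 fold change -2.55, adjusted p = 0.00724). SPANXD had 1, 1 and 0 in construct 86 libraries, against 103, 27 and 97 in EV libraries (limma log2 fold change -5.37, adjusted p = 0.000758). SPANX copies are nearly identical, so reads of one can be assigned to another.

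The construct 87 zeros cannot be read as absence. Every ID above 0 in the EV and construct 86 files reached 14 in at least 3 of those 6 libraries, and 400 of these 14225 IDs were at 0 in every construct 87 file. Of those 400 IDs, 0 reached 14 in all 3 EV libraries. The construct 87 zeros of the 152 genes therefore appear to mark rows filtered from a table, and their levels with construct 87 are not known. A limit of 14 in 3 of the EV and construct 87 libraries would not account for every row, since 12 IDs listed in both sets miss it. Applied to EV and construct 86 levels alone, the same limits gave 243 IDs, of which 91 were listed with construct 87. Those 91 had a construct 86 mean with a median of 95.7 and a construct 87 mean with a median of 34.3, over a range of 9.33 to 345.3. All 3 construct 87 libraries reached 14 for 64 of the 91 IDs, 2 did for 22 IDs and 1 did for 5 IDs. Being at 0 with construct 87 became rarer as the construct 86 mean grew. It held for 27 of 28 IDs (96.4%) with a construct 86 mean of 14 to 25, 69 of 86 (80.2%) at 25 to 50, 35 of 65 (53.8%) at 50 to 100 and 21 of 64 (32.8%) at 100 or more.

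**Figure D1:**
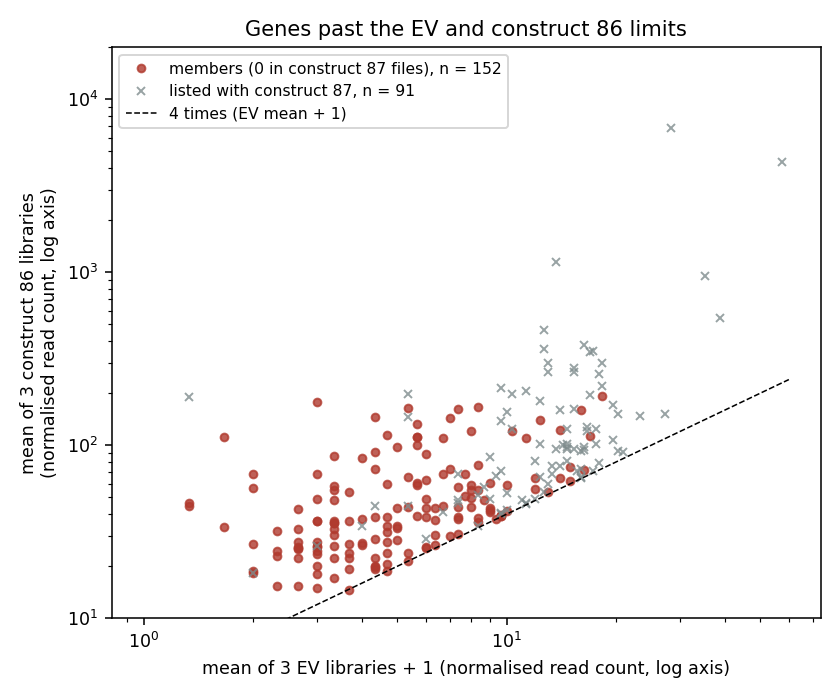
Mean of 3 construct 86 libraries (vertical, normalised read count, log axis) against the mean of 3 EV libraries plus 1 (horizontal, log axis) for the 243 IDs past the level limits; filled points are the 152 genes at 0 in construct 87 files, crosses the 91 IDs listed there, and the dashed line is the 4-fold limit. The filled points sit lower, with construct 86 means from 14.7 to 191.7.

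Promoter sequences were taken from the RefSeq promoter table (GRCh38.p14), which covers 250 bases before to 50 after each gene's start and matched 88 of the 152 genes. The first 4 sequences shown are those of C1QTNF3, NPPC, ID4 and HAP1. These were the genes with TATAAA, the core of a TATA box, on the gene's own strand 25 to 35 bases before the start, a window set after the positions were seen. RXRG and SPSB4 follow as the genes with the highest construct 86 means that had an entry in the table. KCNF1 is shown for TGACGTCA, the cyclic AMP response element, which starts 19 bases before its transcription start. Each line gives the 250 bases before the start, 5′ to 3′ on the gene's strand. Capitals mark any match on either strand to the TATA box core TATAAA, the AP-1 site TGANTCA, the E-box CACGTG, the TEAD site GGAATG, the cyclic AMP response element TGACGTCA and the GC box GGGCGG.
C1QTNF3: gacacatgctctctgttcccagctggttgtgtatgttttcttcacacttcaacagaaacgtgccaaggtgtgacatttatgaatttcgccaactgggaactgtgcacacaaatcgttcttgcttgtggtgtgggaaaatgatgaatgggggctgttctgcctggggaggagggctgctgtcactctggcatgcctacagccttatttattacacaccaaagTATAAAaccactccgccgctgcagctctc
NPPC: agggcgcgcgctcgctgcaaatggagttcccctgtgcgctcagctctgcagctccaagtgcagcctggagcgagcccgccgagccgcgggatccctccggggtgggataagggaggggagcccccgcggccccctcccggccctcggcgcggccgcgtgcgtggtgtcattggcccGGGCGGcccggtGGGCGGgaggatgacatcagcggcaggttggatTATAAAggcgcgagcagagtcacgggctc
ID4: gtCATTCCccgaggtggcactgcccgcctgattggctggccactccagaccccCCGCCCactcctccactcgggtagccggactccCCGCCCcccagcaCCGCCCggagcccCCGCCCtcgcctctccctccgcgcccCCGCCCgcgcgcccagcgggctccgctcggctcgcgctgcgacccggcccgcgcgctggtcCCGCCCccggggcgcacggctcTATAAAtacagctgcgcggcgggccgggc
HAP1: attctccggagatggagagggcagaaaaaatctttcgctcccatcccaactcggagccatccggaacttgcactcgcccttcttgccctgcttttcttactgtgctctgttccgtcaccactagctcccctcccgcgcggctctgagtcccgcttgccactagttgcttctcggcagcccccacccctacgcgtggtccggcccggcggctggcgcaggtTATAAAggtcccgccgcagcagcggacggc
RXRG: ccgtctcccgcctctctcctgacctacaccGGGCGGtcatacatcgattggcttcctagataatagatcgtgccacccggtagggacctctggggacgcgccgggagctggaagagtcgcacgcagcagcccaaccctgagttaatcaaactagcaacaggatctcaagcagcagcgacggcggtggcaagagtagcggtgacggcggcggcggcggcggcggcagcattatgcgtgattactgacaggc
SPSB4: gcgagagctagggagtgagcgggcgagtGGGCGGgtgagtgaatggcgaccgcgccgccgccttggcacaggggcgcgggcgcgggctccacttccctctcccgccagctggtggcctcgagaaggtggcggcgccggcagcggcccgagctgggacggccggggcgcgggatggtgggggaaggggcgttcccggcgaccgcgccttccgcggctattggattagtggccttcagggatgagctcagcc
KCNF1: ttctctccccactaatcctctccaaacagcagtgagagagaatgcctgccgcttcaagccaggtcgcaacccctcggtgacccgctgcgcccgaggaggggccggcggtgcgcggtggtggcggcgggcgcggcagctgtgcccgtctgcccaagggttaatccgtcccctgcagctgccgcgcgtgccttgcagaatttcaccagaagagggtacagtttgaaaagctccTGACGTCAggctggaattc
They lie at chr5:34043214-34043463 on the minus strand (C1QTNF3), chr2:231926397-231926646 on the minus strand (NPPC), chr6:19837120-19837369 on the plus strand (ID4), chr17:41734644-41734893 on the minus strand (HAP1), chr1:165445127-165445376 on the minus strand (RXRG), chr3:141051097-141051346 on the plus strand (SPSB4) and chr2:10911684-10911933 on the plus strand (KCNF1). TATAAA starts 29 bases before the start in C1QTNF3, NPPC and ID4 and 30 bases before it in HAP1. That placement was found in 4 of 88 genes (4.55%), in 1.52% of the 10503 other tested genes with an entry and in 2.41% of all 27305 promoters of the table. Among 2804 other tested genes in the same range of construct 86 means it was found in 1.78%. ID4 also carries repeated CCGCCC, the reverse complement of GGGCGG, the GC box.

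NPPC, which encodes C-type natriuretic peptide, had 15, 23 and 29 in construct 86 libraries, against 2, 1 and 4 in EV libraries. ID4, an inhibitor of basic helix-loop-helix factors, had 40, 21 and 22 in construct 86 libraries, against 0, 1 and 4 in EV libraries. HAP1, a huntingtin-associated transport adaptor, had 34, 59 and 84 in construct 86 libraries, against 7, 3 and 4 in EV libraries. These 3 genes were low even with construct 86. No construct 86 library overlapped an EV library, as in all 152 genes chosen by the rule and upward in 23% of all 14225 IDs. C1QTNF3, a secreted adipokine-like protein, had 49, 30 and 70 in construct 86 libraries, against 6, 5 and 10 in EV libraries. KCNF1, a modulatory potassium channel subunit, had 64, 43 and 73 in construct 86 libraries, against 6, 4 and 1 in EV libraries.

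Over the whole window of 300 bases the 88 promoters were poorer in CpG than those of other tested genes, a description with no test. A ratio of observed to expected CpG of 0.6 or more, a usual mark of a CpG island promoter, was found in 55 of 88 genes (62.5%) and in 82.5% of the 10503 others. Among 2804 other tested genes in the same range of construct 86 means the share was 71.9%, and over all 27305 promoters it was 49.0%. The median ratio was 0.727 in the 88 genes, 0.786 in those 2804 genes and 0.840 in all other tested genes. GGGCGG on either strand was found in 53.4% of the 88 promoters, 63.6% of the 2804 and 70.1% of the 10503. TATAAA on either strand anywhere in the window was found in 10 of 88 promoters (11.4%), 6.7% of the 2804, 5.49% of the 10503 and 12% of all promoters. TGANTCA, the AP-1 site, was found in 1 of 88 (1.14%), 4.67% of other tested genes and 7.76% of all promoters. CACGTG, the E-box bound by MITF and MYC among others, was found in 5 of 88 (5.68%) against 10.1% of other tested genes and 7.43% of all promoters. GGAATG, the TEAD site, was found in 6 of 88 (6.82%), 10.9% of other tested genes and 14% of all promoters. TGACGTCA was found in 3 of 88 (3.41%), 3.28% of other tested genes and 1.98% of all promoters. Among the 2804 genes the shares were 5.53% for TGANTCA, 8.31% for CACGTG, 11.4% for GGAATG and 2.32% for TGACGTCA. Matches are descriptions of letters only.

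**Figure D2:**
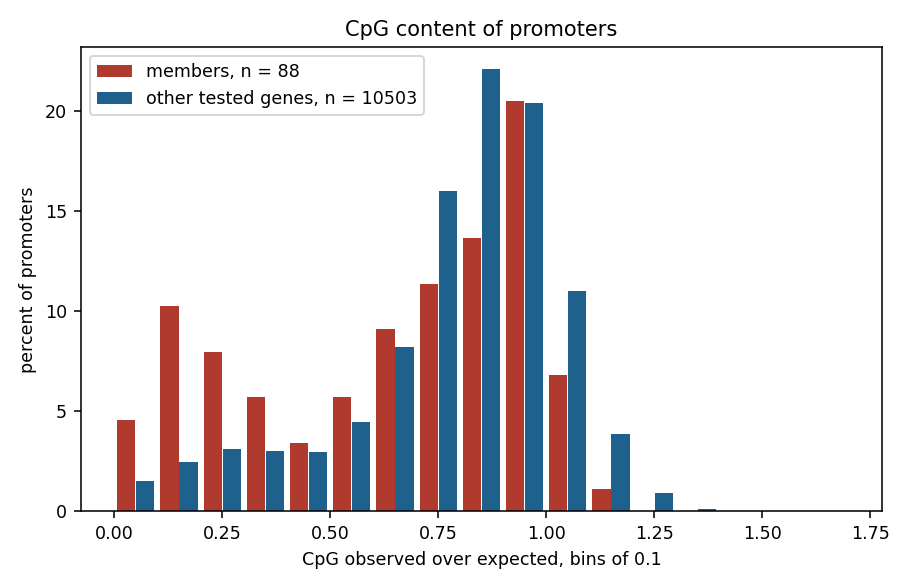
Percent of promoters (vertical) by ratio of observed to expected CpG in the 300-base window (horizontal, bins of 0.1) for the 88 genes with an entry and 10503 other tested genes. The 88 genes fill the bins under 0.4 more and the bins of 0.7 to 0.9 less, with 62.5% and 82.5% of promoters at 0.6 or more.

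The 152 genes were low in every library. Their construct 86 means ran from 14.7 to 191.7 with a median of 39.3, against EV means from 0.33 to 17.3 with a median of 4.0. Summed over the 152 genes, the level was 7287, 8813 and 8421 in construct 86 libraries, against 754, 798 and 658 in EV libraries. That is 0.0534%, 0.0651% and 0.0645% of the construct 86 libraries, against 0.00524%, 0.00608% and 0.00494% of the EV libraries. In EV libraries, 123 genes had at least 1 read in all 3 libraries, 26 were at 0 in 1 library and 3 were at 0 in 2 libraries. The EV level was thus low and mostly above 0. In EV libraries 139 of the 152 genes never reached 14, 7 reached it in 1 library and 6 in 2 libraries. The construct 86 mean over the EV mean plus 1 had a median of 8.11 and ran from 4.0 to 66.6, with 123 genes at 5 or more, 53 at 10 or more and 18 at 20 or more. Bulk libraries cannot tell more cells that make a transcript from more transcript per cell.

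All 152 genes had every construct 86 library above every EV library, a pattern found upward in 23% of the 14225 IDs listed in EV or construct 86 files. Across all 14225 IDs, limma called 4479 (31.5%), of which 2391 rose (16.8%) and 2088 fell (14.7%). With the replicate number as a block it called 7672, of which 3786 rose and 3886 fell. All 152 genes were among the rises in both fits, which the rule used and from which nothing is read here. At the limits, ABCA6, AC079684.1 and SIRPAP1 lay just inside with a ratio of 4.0, and RP11-399O19.9 (3.96), NPY1R (3.92) and EFHB (3.90) lay just outside. AC079684.1, DLX6 and FBN2 had a lowest construct 86 library of 14, and RASL12, with 9, 23 and 77 in construct 86 libraries, was the only ID that missed the limit of 14 alone.

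By gene type, 124 of the 152 genes were protein coding (81.6%, against 88.1% of the 14225 IDs), 21 were noncoding (13.8%, against 7.86%) and 6 were pseudogenes (3.95%, against 3.54%), with 1 ID not matched. The noncoding genes were 10 lincRNAs, 5 antisense RNAs, 3 sense-overlapping and 1 sense-intronic RNA and 2 IDs of the provisional type TEC. Chromosome 19 held 16 genes, 10.5% of the set against 7.21% of all tested IDs, and chromosome 1 held 14. Of the 152 genes, 91 fell in at least 1 group made from gene symbols or in a gene list, and 61 fell in none. The groups are crude, since a symbol can carry a family name without its function.

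**Figure D3:**
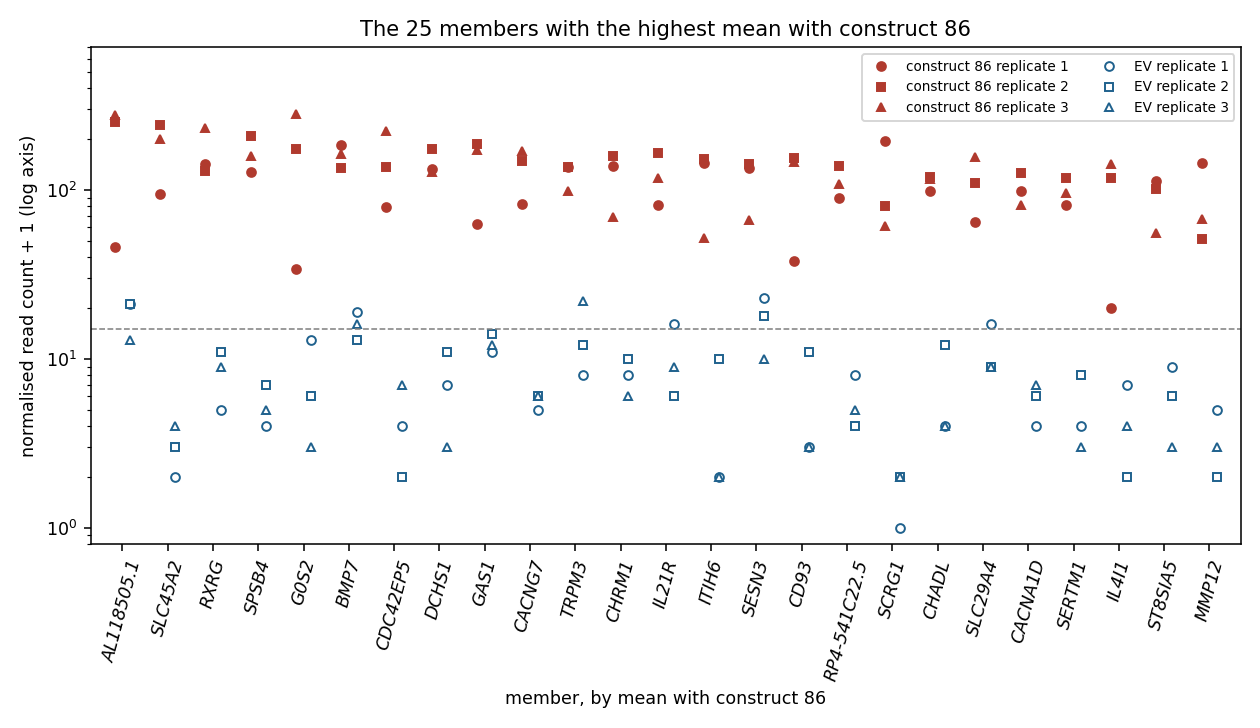
Normalised read count plus 1 (vertical, log axis) in each construct 86 library (filled) and each EV library (open) for the 25 genes with the highest construct 86 mean (horizontal); the dashed line is a value of 14. Every filled symbol of a gene lies above its open symbols, and construct 86 replicate 1 (filled circle) is far below the other filled symbols for AL118505.1, G0S2, CD93 and IL4I1.

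Ion channel subunits were the group in which the genes made up the largest share of the listed genes among the 17 symbol groups. They were 10 of 112 listed channel genes (8.93%), where the 152 genes were 1.07% of all IDs. Restricted to IDs in the same range of construct 86 means, the shares were 10 of 63 channel genes (15.9%) and 152 of 4548 IDs (3.34%). CACNG7, an auxiliary subunit of AMPA receptors and calcium channels, had 82, 147 and 169 in construct 86 libraries, against 4, 5 and 5 in EV libraries. TRPM3, a heat- and steroid-activated cation channel, had 136, 135 and 97 in construct 86 libraries, against 7, 11 and 21 in EV libraries. TRPM3 thus passed 14 in 1 EV library, while CACNG7 stayed near 5 in all 3. CACNA1D, the pore of an L-type calcium channel, had 97, 125 and 81 in construct 86 libraries, against 3, 5 and 6 in EV libraries. CATSPERD, a subunit of the calcium channel of the sperm tail, had 93, 45 and 66 in construct 86 libraries, against 0, 2 and 1 in EV libraries. A calcium channel symbol was carried by 3 genes, CACNG7, CACNA1D and CACNA1C, the last another L-type pore. The other 6 genes had construct 86 means from 24.3 (ANO4, of the anoctamin family) to 60 (KCNF1), against EV means from 2.0 to 11. They included KCNN1, a small-conductance calcium-activated potassium channel, and KCNMB4, a subunit of the large-conductance one. Of 102 channel genes outside the set, 31 rose and 6 fell by limma, or 43 and 14 with the replicate block. Without construct 86 replicate 2 the number that rose was 18. Of all 14073 IDs outside the set, 2239 rose and 2088 fell by limma, or 3634 and 3886 with the replicate block. Without construct 86 replicate 2 these were 1176 and 931, so fewer calls in that setting were shared by all IDs. The counts for the groups below are to be read beside these.

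Receptors coupled to G proteins gave 5 of 111 listed genes (4.5%). CHRM1, the M1 muscarinic acetylcholine receptor, had 137, 158 and 68 in construct 86 libraries, against 7, 9 and 5 in EV libraries. AGTR1, the type 1 angiotensin II receptor, had 81, 77 and 48 in construct 86 libraries, against 8, 10 and 2 in EV libraries. Both lay above the EV libraries, as all 152 genes did, with the lowest construct 86 value in replicate 3. MRGPRX3, an orphan Mas-related receptor, ADRA1D, an alpha-1 adrenoceptor, and S1PR3, a sphingosine 1-phosphate receptor, had construct 86 means of 38.3, 33.3 and 26.0, against EV means of 3.67, 4.0 and 5.0. Of 106 such receptors outside the set, 31 rose and 14 fell by limma, or 41 and 22 with the replicate block, and 16 rose without construct 86 replicate 2. GNG7, a G protein gamma subunit, had 44, 67 and 119 in construct 86 libraries, against 7, 7 and 8 in EV libraries. GNG7 was the highest of 7 genes in the group of kinases, phosphatases and G protein regulators (7 of 494 listed, 1.42%). DGKI, a diacylglycerol kinase, had 64, 45 and 23 in construct 86 libraries, against 11, 5 and 5 in EV libraries, so DGKI was lowest and GNG7 highest in construct 86 replicate 3. The other 5 genes of that group had construct 86 means from 19.3 to 37.7. They were ARHGAP6, ARHGAP25, NEK3, a kinase of the NEK family, PRKG1, the cyclic GMP-dependent kinase, and RASGEF1A, a Ras exchange factor.

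Secreted signals and their receptors gave 7 of 183 listed genes (3.83%). BMP7, a bone morphogenetic protein of the TGF-beta family, had 185, 134 and 162 in construct 86 libraries, against 18, 12 and 15 in EV libraries, or 160.3 ± 25.5 with construct 86 against 15 ± 3.0 in EV libraries (SD, n = 3 each). IL21R, the interleukin 21 receptor of lymphocytes, had 80, 164 and 117 in construct 86 libraries, against 15, 5 and 8 in EV libraries. BMP7 and IL21R both reached 14 in EV libraries, BMP7 in 2 and IL21R in 1. IL4I1, which carries an interleukin symbol but encodes a secreted amino acid oxidase, had 19, 116 and 141 in construct 86 libraries, against 6, 1 and 3 in EV libraries. CX3CL1, the membrane-bound chemokine fractalkine, TNFSF12, the ligand TWEAK, ANGPTL1, an angiopoietin-like protein, and NTF4, a neurotrophin, had construct 86 means of 36.7, 41.3, 35.7 and 25.7, against EV means of 2.0, 8.0, 2.33 and 2.0. Of 176 such genes outside the set, 69 rose and 11 fell by limma, or 90 and 20 with the replicate block, and 40 rose without construct 86 replicate 2. FAM19A3, a secreted chemokine-like protein, had 75, 70 and 80 in construct 86 libraries, against 19, 14 and 9 in EV libraries. LEFTY1, an inhibitor of nodal signalling, had 26, 26 and 63 in construct 86 libraries, against 3, 3 and 4 in EV libraries.

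Genes of the immune surface pattern gave 6 of 136 listed genes (4.41%), of which 3 were the C1q- and TNF-related secreted proteins C1QTNF2, C1QTNF3 and C1QTNF4. CD93, a lectin-like receptor of endothelial and myeloid cells, had 37, 153 and 145 in construct 86 libraries, against 2, 10 and 2 in EV libraries. C1QTNF2 had 82, 63 and 50 in construct 86 libraries, against 18, 9 and 6 in EV libraries. C1QTNF4 had 64, 53 and 53 in construct 86 libraries, against 2, 1 and 0 in EV libraries. The remaining 2 genes were C7, a component of the complement membrane attack complex, with a construct 86 mean of 55.0 against an EV mean of 2.33, and CD101, a leukocyte surface protein, with 55.3 against 7.33. Outside the set, 35 of 130 such genes rose and 9 fell by limma, or 49 and 22 with the replicate block, and 20 rose without construct 86 replicate 2. Markers of immune cells were otherwise nearly all listed at 0. Zeros of markers in this paragraph cannot be read as absence. Every ID above 0 reached 14 in at least 3 of the 6 EV and construct 86 libraries, so a marker below that may have been filtered. Of 9 such markers only LYZ was above 0, at 236 to 329 in construct 86 libraries and 143 to 263 in EV libraries, while PTPRC, the pan-leukocyte gene CD45, was at 0 throughout. TEK, the angiopoietin receptor of endothelial cells, had 48, 44 and 33 in construct 86 libraries, against 8, 9 and 10 in EV libraries. Of the 5 endothelial markers in the files, only TEK and ESAM were above 0, and the defining genes CDH5 and VWF were at 0. TEK is a gene of the set, so its difference comes from the rule and the sum of both markers is not read. ESAM, outside the set, had 38, 64 and 52 in construct 86 libraries, against 12, 28 and 21 in EV libraries. PECAM1 was not analysed here. Of 8 fibroblast markers 6 were above 0, with a sum of 1081 to 1388 in construct 86 libraries against 427 to 484 in EV libraries. COL1A2 leaned the other way, with 9, 7 and 14 in construct 86 libraries, against 17, 23 and 11 in EV libraries. COL3A1 and THY1 were at 0 throughout. Of 6 neuron and glia markers SNAP25, SYT1 and OLIG2 were above 0, with a sum of 313 to 400 in construct 86 libraries against 184 to 339 in EV libraries, ranges that overlap. SNAP25 ran the other way, with 18, 24 and 35 in construct 86 libraries, against 54, 57 and 173 in EV libraries. The 4 of 8 epithelial markers above 0 summed to 2777 to 3542 in construct 86 libraries against 8040 to 11305 in EV libraries. KRT18 made up most of that sum, and CLDN4 ran the other way, with 465, 869 and 1251 in construct 86 libraries, against 98, 88 and 121 in EV libraries. The part of the differences in fibroblast, neural and epithelial markers in the levels of the 152 genes was not tested.

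Matrix and adhesion genes gave 8 of 245 listed genes (3.27%). MMP12, the macrophage elastase, had 143, 50 and 66 in construct 86 libraries, against 4, 1 and 2 in EV libraries. PCDH12, a protocadherin of vascular endothelium, had 87, 102 and 66 in construct 86 libraries, against 2, 4 and 3 in EV libraries. The other 6 were the collagenase MMP13, the procollagen protease ADAMTS2, its relative ADAMTS10, the microfibril protein FBN2, the adhesion protein FLRT1 and the neuronal CNTNAP2. Their construct 86 means ran from 15.3 (FBN2) to 48.3 (FLRT1), against EV means from 1.67 to 4.33. Of 237 matrix and adhesion genes outside the set, 112 rose and 12 fell by limma, or 142 and 24 with the replicate block, beside 2239 rises and 2088 falls among all 14073 IDs outside the set. Without construct 86 replicate 2, 69 of the 237 rose, and without EV replicate 1, 74 rose. Large cell-surface cadherins were also met outside this group. DCHS1, a giant protocadherin of planar cell polarity, had 132, 173 and 126 in construct 86 libraries, against 6, 10 and 2 in EV libraries, and its paralog DCHS2 had 54, 31 and 24 in construct 86 libraries, against 1, 5 and 2 in EV libraries. CHADL, a leucine-rich matrix protein, had 98, 118 and 115 in construct 86 libraries, against 3, 11 and 3 in EV libraries. ITIH6, of the inter-alpha-trypsin inhibitor heavy chain family that binds hyaluronan, had 144, 151 and 51 in construct 86 libraries, against 1, 9 and 1 in EV libraries.

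Pigment and neural crest genes were met through SLC45A2, a transporter of the melanosome membrane needed for pigment formation. SLC45A2 had 94, 241 and 200 in construct 86 libraries, against 1, 2 and 3 in EV libraries, or 178.3 ± 75.9 with construct 86 against 2.0 ± 1.0 in EV libraries (SD, n = 3 each). It was the only one of 11 listed melanocyte lineage genes in the set. Of the other 10, 4 rose and 0 fell by limma, and this count was 4 and 0 with the replicate block and without any single library. SOX10, the neural crest factor upstream of MITF, had 12464, 19457 and 14540 in construct 86 libraries, against 2278, 5817 and 2632 in EV libraries (limma log2 fold change 2.22, adjusted p = 0.00307). CITED1, a transcriptional coregulator of the melanocyte lineage, had 413, 493 and 562 in construct 86 libraries, against 37, 14 and 18 in EV libraries (limma log2 fold change 4.46, adjusted p = 0.00034). EDNRB, the endothelin receptor of melanoblasts, had 527, 920 and 1135 in construct 86 libraries, against 75, 98 and 119 in EV libraries (limma log2 fold change 3.09, adjusted p = 0.000521). These 3 genes stood above the level of SLC45A2. MITF, the master regulator of pigment genes, did not pass the test, with 804, 479 and 387 in construct 86 libraries, against 678, 606 and 472 in EV libraries (limma adjusted p = 0.771). The pigment genes TYR, DCT and MLANA were listed at 0 in all 6 libraries, which may mark filtered rows and is not read as absence. PAX3, PMEL, RAB27A, S100B and MC1R did not pass the test. EGR2, the myelination factor of Schwann cells and a gene of the set, had 63, 67 and 67 in construct 86 libraries, against 8, 4 and 1 in EV libraries.

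Transporters gave 5 of 293 listed genes (1.71%), SLC45A2 included. SLC29A4, a plasma membrane monoamine transporter, had 64, 109 and 156 in construct 86 libraries, against 15, 8 and 8 in EV libraries. SLC40A1, the iron exporter ferroportin, SLC4A4, a sodium bicarbonate cotransporter, and ABCA6, an ABC transporter, had construct 86 means of 37.0, 22.3 and 21.3, against EV means of 5.33, 1.67 and 4.33. TF, the iron carrier transferrin, had 37, 52 and 42 in construct 86 libraries, against 4, 3 and 8 in EV libraries.

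DNA-binding factors gave 8 of 309 listed genes of that pattern (2.59%) beside 3 of 543 zinc finger genes (0.552%), and the nuclear receptor RXRG. RXRG, the gamma retinoid X receptor that pairs with other nuclear receptors, had 141, 128 and 231 in construct 86 libraries, against 4, 10 and 8 in EV libraries, or 167 ± 56.1 with construct 86 against 7.33 ± 3.06 in EV libraries (SD, n = 3 each). TCF7L1, a TCF factor of Wnt signalling, had 26, 67 and 53 in construct 86 libraries, against 4, 6 and 5 in EV libraries. ZNF704, a zinc finger gene, had 99, 55 and 22 in construct 86 libraries, against 7, 10 and 4 in EV libraries. ZBTB7C, a BTB zinc finger gene, had 28, 16 and 14 in construct 86 libraries, against 2, 6 and 2 in EV libraries, near the lower limit. The other factors were EGR2, ID4, the Notch target HEY2, the corepressor RUNX1T1 and the homeobox genes HOXD1, LHX8 and DLX6, with construct 86 means from 15 (DLX6) to 65.7 (EGR2). Of 301 such factors outside the set, 78 rose and 28 fell by limma, or 115 and 49 with the replicate block, and 40 rose without construct 86 replicate 2. Among zinc finger genes outside the set, 48 rose and 59 fell of 540 by limma, or 105 and 109 with the replicate block, 17 and 27 without construct 86 replicate 2 and 23 and 32 without EV replicate 1.

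Neuronal genes were met in several families. NOVA2, a splicing factor of neurons, had 19, 62 and 59 in construct 86 libraries, against 1, 0 and 0 in EV libraries. OLFML2B, a secreted olfactomedin-like protein, had 85, 70 and 40 in construct 86 libraries, against 16, 14 and 9 in EV libraries. SCRG1, a small secreted protein first known from prion-infected brain, had 194, 79 and 60 in construct 86 libraries, against 0, 1 and 1 in EV libraries. SCRG1 thus had the highest ratio of construct 86 mean to EV mean plus 1 of the set, 66.6, with its value in replicate 1 well above the other 2. Of 135 listed nervous system and secretion genes 4 were in the set (2.96%), namely NOVA2, CACNG7, OLFML2B and the synaptotagmin gene SYT16. Of 131 outside the set, 46 rose and 9 fell by limma, or 62 and 18 with the replicate block, and 27 rose without construct 86 replicate 2. Among genes in no group, LINGO2, ISLR2, LGI3, CHL1, UNC80, LIN7A, MSI1 and HAP1 are also best known from the nervous system, a choice made after their values were seen, with construct 86 means from 23.0 (LGI3) to 73.0 (LINGO2), against EV means from 1.0 to 6.33. ALK, the receptor kinase of developing neurons, had 71, 96 and 51 in construct 86 libraries, against 1, 5 and 4 in EV libraries. ST8SIA5, a sialyltransferase of gangliosides, had 112, 100 and 55 in construct 86 libraries, against 8, 5 and 2 in EV libraries.

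**Figure D4:**
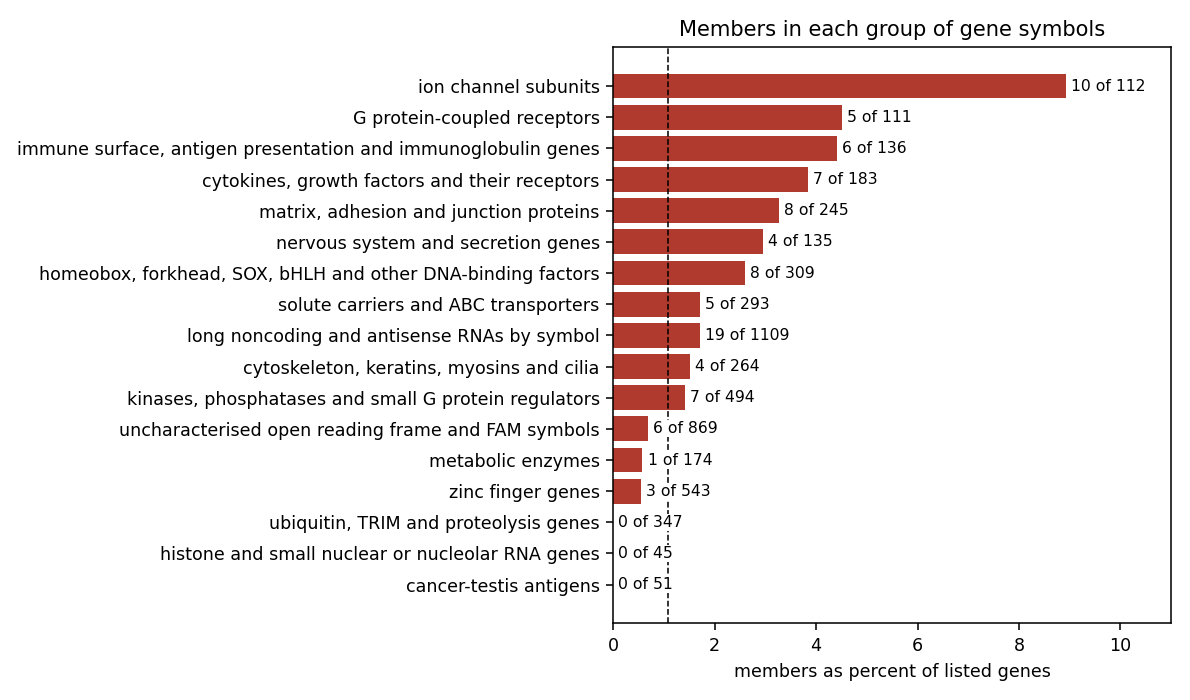
Genes of the set as percent of the listed genes (horizontal) in each of 17 groups made from gene symbols (vertical), with both counts beside each bar; the dashed line is 1.07%, the share over all 14225 IDs. Ion channel subunits stand at 8.93%, while zinc finger genes stand at 0.552% and 3 groups hold no gene of the set.

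Several of the most abundant genes belonged to none of these families. SPSB4, a substrate adaptor of an E3 ubiquitin ligase, had 126, 208 and 159 in construct 86 libraries, against 3, 6 and 4 in EV libraries. G0S2, an inhibitor of triglyceride lipase, had 33, 175 and 280 in construct 86 libraries, against 12, 5 and 2 in EV libraries. CDC42EP5, an effector of the small GTPase CDC42 that organises septins, had 78, 136 and 223 in construct 86 libraries, against 3, 1 and 6 in EV libraries. G0S2 spread widely over the construct 86 libraries, while SPSB4 did not. GAS1, a membrane-anchored hedgehog coreceptor, had 62, 186 and 171 in construct 86 libraries, against 10, 13 and 11 in EV libraries. SESN3, a sestrin that restrains mTORC1, had 134, 141 and 65 in construct 86 libraries, against 22, 17 and 9 in EV libraries. SESN3 had the second-highest EV mean of the set, after AL118505.1. ELOVL3, an elongase of very long fatty acids, had 31, 31 and 39 in construct 86 libraries, against 0, 0 and 2 in EV libraries. TSGA10IP, named as a partner of a testis-specific protein, had 27, 49 and 57 in construct 86 libraries, against 1, 0 and 0 in EV libraries. No gene of the cancer-testis pattern was in the set, of 51 listed, where the set was 1.07% of all IDs. Only 19 of them lay in its range of construct 86 means, where the set was 3.34% of IDs. Nothing is read from the 0. MERTK, the receptor kinase that clears dying cells, CYGB, the oxygen-binding cytoglobin, and CAMP, the antimicrobial peptide cathelicidin, had construct 86 means of 37.3, 48.0 and 39.0, against EV means of 6.33, 7.67 and 8.67.

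Cytoskeletal and ciliary genes gave 4 of 264 listed genes (1.52%). KIF12, a kinesin, had 14, 55 and 93 in construct 86 libraries, against 1, 6 and 1 in EV libraries. CCDC64, a dynein adaptor, had 45, 92 and 40 in construct 86 libraries, against 12, 12 and 3 in EV libraries. CCDC87 and the axonemal dynein gene DNAH10 had construct 86 means of 43.3 and 20, against EV means of 4.0 and 2.0. Outside the set this group leaned the other way, with 28 of 260 rising and 54 falling by limma, or 51 and 86 with the replicate block, 16 and 31 without construct 86 replicate 2 and 15 and 47 without EV replicate 3. In lists of stress pathways the set held XAF1, an interferon-induced partner of XIAP, at 24, 28 and 51 in construct 86 libraries, against 2, 5 and 4 in EV libraries. It held no listed p53 or NF-kB target, where only 2 and 6 such genes lay in its range of construct 86 means. Of all 14073 IDs outside the set, 2239 rose and 2088 fell by limma. Beside these, 7 of 40 interferon genes outside the set rose and 3 fell, 17 of 35 p53 targets rose and 0 fell, and 12 of 25 NF-kB targets rose and 0 fell. With the replicate block these counts were 16 and 7, 21 and 2, and 17 and 0, and without construct 86 replicate 2 they were 2 and 0, 14 and 0, and 8 and 0. Of 26 listed senescence secretory genes the set held MMP12, and of the other 25, 8 rose and 3 fell, or 13 and 3 with the replicate block and 5 and 2 without construct 86 replicate 2.

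Long noncoding and pseudogene transcripts included the gene with the highest construct 86 mean. AL118505.1, a lincRNA on chromosome 20, had 45, 251 and 279 in construct 86 libraries, against 20, 20 and 12 in EV libraries. RP4-541C22.5, an antisense RNA of KIAA1549L, had 89, 138 and 108 in construct 86 libraries, against 7, 3 and 4 in EV libraries. C4BPAP1, a pseudogene of the complement inhibitor gene C4BPA, had 74, 71 and 59 in construct 86 libraries, against 1, 1 and 4 in EV libraries. RP11-100G15.7, an unprocessed pseudogene, had 14, 75 and 100 in construct 86 libraries, against 0, 5 and 10 in EV libraries. By symbol pattern, 19 of 1109 listed noncoding and antisense IDs were in the set (1.71%), among them pseudogenes such as RP11-100G15.7. In the same range of construct 86 means the share was 19 of 783 (2.43%), against 3.34% of all IDs, so it lay above the share of all listed IDs (1.07%) but below that of IDs at the same level. Of the 1090 outside it, 65 rose and 231 fell by limma, or 127 and 398 with the replicate block and 22 and 131 without construct 86 replicate 2. Leaving out any 1 library gave between 22 and 66 rises and between 127 and 324 falls in this group, the fewest falls without EV replicate 1.

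Some of these IDs cannot be told from a neighbour by the files. Of the 152 genes, 26 overlapped another listed gene in the GENCODE annotation, 20 of them on the opposite strand only, and 25 overlapped a gene with a higher construct 86 mean. The strand setting of the counting is not given in the sources used here. RP4-541C22.5 lies opposite KIAA1549L, whose mean was 2386 with construct 86 and 551 in EV libraries. CIRBP-AS1, with a mean of 44.3 with construct 86 and 5.67 in EV libraries, lies opposite CIRBP, whose mean was 327 with construct 86 and 982 in EV libraries. IL4I1 shares its strand with NUP62, whose mean was 1268 with construct 86 and 1360 in EV libraries, and TF shares its strand with SRPRB, whose mean was 1550 with construct 86 and 1475 in EV libraries. C4BPAP1 and RP11-164O23.7, both in the set, overlap each other on the same strand.

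Relatives by name were the genes outside the set that share the letter root of a symbol in it, and their levels were not used by the rule. The 152 genes had 95 roots, of which 71 had at least 1 relative. Of 1153 relatives, 193 rose (16.7%) and 128 fell (11.1%) by limma, beside 16.8% and 14.7% of all 14225 IDs. With the replicate block 305 relatives rose and 243 fell. Zinc finger and coiled-coil domain genes made up a large share of the relatives. Without the roots ZNF and CCDC, 152 of 612 relatives rose (24.8%) and 70 fell (11.4%), or 212 and 128 with the replicate block and 89 and 37 without construct 86 replicate 2. Few rose under those roots (ZNF 37 of 450, CCDC 4 of 91), so leaving them out raises the share by itself. The generic roots FAM (35 of 180 rose) and KIAA (18 of 70) were kept, and nothing is read from the higher share.

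Matrix metalloproteinases outside the set mostly rose. Of 15 relatives of MMP12 and MMP13, 10 rose and 0 fell by limma, with 14 and 0 under the replicate block and between 8 and 11 rising when any 1 library was left out. MMP8, the neutrophil collagenase, had 197, 201 and 224 in construct 86 libraries, against 17, 18 and 15 in EV libraries (limma log2 fold change 3.56, adjusted p = 0.000262). Of 13 relatives of ADAMTS2 and ADAMTS10, 5 rose and 0 fell, or 8 and 0 with the replicate block and 2 and 0 without construct 86 replicate 2. ADAMTS15, a proteoglycan-cutting protease, had 1163, 2105 and 1712 in construct 86 libraries, against 136, 182 and 94 in EV libraries (limma log2 fold change 3.59, adjusted p = 0.000363). Of 7 relatives of BMP7, 4 rose and 0 fell, or 5 and 1 with the replicate block, and 4 rose when any 1 library was left out. The kinesin relatives of KIF12 went the other way, with 3 rising and 10 falling of 31, or 4 and 15 with the replicate block and 1 and 6 without construct 86 replicate 2.

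The relative with the smallest adjusted p was ANGPTL4, an inhibitor of lipoprotein lipase, with 827, 1224 and 1438 in construct 86 libraries, against 51, 40 and 67 in EV libraries (limma log2 fold change 4.43, adjusted p = 0.00016). DACT1, a modulator of Wnt signalling related to DACT3 of the set, had 199, 152 and 88 in construct 86 libraries, against 3, 5 and 5 in EV libraries (limma log2 fold change 4.74, adjusted p = 0.000364). MRGPRX4, next to MRGPRX3 in its receptor family, had 244, 292 and 259 in construct 86 libraries, against 9, 23 and 11 in EV libraries (limma log2 fold change 4.22, adjusted p = 0.000364). DACT1 and MRGPRX4 had EV levels as low as those of the set. Like KIAA0226L, they passed the same EV and construct 86 limits and were left out only for being listed with construct 87. GNG2, a G protein gamma subunit like GNG7, had 2153, 2033 and 2449 in construct 86 libraries, against 287, 372 and 347 in EV libraries (limma log2 fold change 2.72, adjusted p = 0.000261). PCDH1, a protocadherin like PCDH12, had 3355, 4612 and 3251 in construct 86 libraries, against 312, 619 and 317 in EV libraries (limma log2 fold change 3.22, adjusted p = 0.000385). FAM46A, KIAA0226L and CCDC149 also rose, with limma log2 fold changes of 2.67, 3.90 and 3.20 and adjusted p of 0.000262, 0.000399 and 0.000487, but their symbols share only a generic root with genes of the set. All 10 of these relatives passed the threshold in each alternative tried.

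The spread of the 152 genes among the construct 86 libraries is given as a description. The rule set a minimum in every construct 86 library, which limits how far the lowest value of a gene can fall. The IDs outside the set named here were matched on the range of means only, with no such minimum. Whether the set varied as much as other genes at its level therefore cannot be read from these values. In the 152 genes the highest construct 86 value was 1.66 times the lowest at the median, and 1.62 times over 4396 IDs outside the set in the same range of construct 86 means. It was over 3 times the lowest in 13 genes (8.55%), against 9.49% of those 4396 IDs. In 10 of the 13 genes the lowest library was construct 86 replicate 1, in 3 it was replicate 3 and in 0 it was replicate 2. Over all 152 genes replicate 1 was lowest in 68, replicate 2 in 30 and replicate 3 in 54. Among the 4396 IDs replicate 1 was lowest in 49.8%, against 44.7% of the set, so the lean towards low values in replicate 1 was shared with other genes.

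The difference between construct 86 replicates 3 and 2 went with transcript length. Across the 151 genes with a length, the log2 ratio of replicate 3 to replicate 2 had a Spearman rho of -0.41 with the longest annotated transcript, and of -0.39 across 14166 tested IDs. For replicate 3 over replicate 1 the rho was -0.25 in the set and -0.07 over tested IDs, and for replicate 2 over replicate 1 it was 0.05 in the set and 0.26 over tested IDs. These correlations are across genes of the same libraries, and genes are not independent replicates. The median longest transcript was 3044 nt in the set and 3538 nt over tested IDs. ZNF704, DGKI and RUNX1T1, with long transcripts, had their lowest construct 86 value in replicate 3. CDC42EP5 and G0S2, with short transcripts, had their highest there. The part of transcript length in the level of single genes was not tested.

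**Figure D5:**
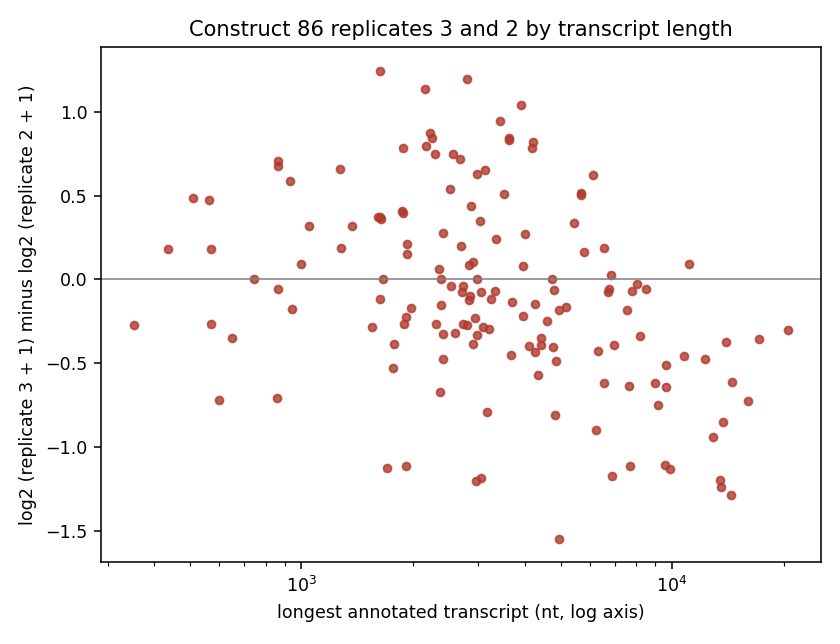
Log2 of construct 86 replicate 3 plus 1 minus log2 of replicate 2 plus 1 (vertical) against the longest annotated transcript (horizontal, nt, log axis) for the 151 genes with a length. Genes with the longest transcripts lie mostly under 0, with a Spearman rho of -0.41.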

How the data were processed

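The authors deposited, for each of 9 libraries, one score for every gene ID, a read count normalised per library and rounded to whole numbers. Per the submitters' processing notes, STAR, featureCounts, Subread and edgeR were used, with no version given, and hg19 was the genome build. Further settings are not given in the sources used here. Each file has 63023 rows and 60420 unique IDs, and for repeated IDs, which differed for 14, the highest value was used.

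The genes and lists described were chosen with earlier results of these data known. Values were tested only between the 3 construct 86 and 3 EV libraries, as deposited, over the 14225 IDs above 0 in any of the 6, by the limma package (3.58.1, R 4.3.3) after adding 1 and taking log2, letting the variance follow the mean. Two-sided p-values were Benjamini-Hochberg adjusted over those IDs and read at 0.05. Rose and fell mean past that threshold. Fold changes on this scale understate those of low genes. The script was tested on simulated data. Construct 87 values were not compared, since those files appear to have been filtered and scaled separately.

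Same-numbered libraries deviated together from their group means (r = 0.469, 0.698 and 0.568 across 13353 genes, against -0.520 to -0.113 for different numbers). The labels do not say what a number marks, and counts with the replicate block are given where they differ by over 1.5 times or beside group counts.

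Values per library are given for the 15 genes with the highest construct 86 mean, the 10 others with the highest ratio, up to 2 genes of each symbol group, and up to 10 relatives with the smallest adjusted p. Genes named beside these, such as those shown for their promoters, were chosen after their values were seen. Gene types, lengths, strands and chromosomes came from GENCODE v29 by stable ID, and promoter sequences from RefSeq, matched by gene ID or symbol. Other tools were Python 3.11.15, pandas 2.3.3 and matplotlib 3.10.9. Alternatives covered scaling, added constant, filters, limits of the rule and leaving out libraries. Some genes are not reported here.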

Additional observations from a re-analysis of the deposited data

How the results depend on the processing

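The set of 152 genes grew to 249 with a 2-fold limit and to 243 with no condition on construct 87, and shrank to 77 with an 8-fold limit and to 79 with 5 added to the EV mean. With a minimum of 10 or 20 in every construct 86 library it held 152 and 114 genes, and with TMM or median-of-ratios rescaling 148 and 145. The count at 10 could hardly change and is no check of the limit. Every listed ID had already reached 14 in at least 3 of the 6 EV and construct 86 libraries. Leaving out 1 library gave 147 to 157 genes, of which 136 to 146 were among the 152. The median ratio of 8.11 was 4.14 with 5 added to the EV mean and 7.7 to 8.68 when 1 library was left out. Over all IDs, 4479 calls became 7672 with the replicate block and 2245 (without construct 86 replicate 2) to 6044 (without EV replicate 2) when 1 library was left out, with 2569 without EV replicate 1. The 321 calls among relatives became 548 with the replicate block and 169 to 395 when 1 library was left out, with 190 without EV replicate 1. The log2 fold change of MITF was 0.10 without construct 86 replicate 3, and that of MC1R 0.14 without construct 86 replicate 1, where with all libraries they were -0.13 and -0.43 (MC1R without construct 86 replicate 3, -0.81). The cause was not tested. The replicate block changed no call among the named genes, MITF and MC1R included. An edgeR test on recovered reads had been planned and was not run, since rounding gives different read numbers the same value. Most genes of the set rest on few EV reads, so their ratios to EV are imprecise.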
